A study of Mus musculus with 3 samples.

Results

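The genes described here are the nuclear genes for subunits of the oxidative phosphorylation machinery, the 5 protein complexes (I to V) of the inner mitochondrial membrane that pass electrons to oxygen and make ATP. They were taken by gene symbol (Nduf, Sdh, Uqcr, Cyc1, Cox and Atp5 names of the subunits, without the assembly factors) and by having at least 1 protein-coding isoform. Of 98 annotated gene rows with such a symbol, 86 held a protein-coding isoform, among 55536 annotated genes in all. They carry 85 symbols, since Atp5o is listed under 2 gene identifiers. By complex there were 35 genes of complex I, 4 of complex II, 9 of complex III, 19 of complex IV and 17 of complex V. The remaining 2, Cox7a2l and Atp5s, encode factors associated with the complexes and were put in none.

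The RNA came from the chromatin fraction of bone marrow-derived macrophages (BMDM), primary cells grown from marrow of C57BL/6J mice. The series holds 3 libraries of total RNA depleted of ribosomal RNA, all of 1 condition. Lipid A is the membrane anchor of lipopolysaccharide and the ligand of Toll-like receptor 4. It was given at 100 ng/ml for 12 h, washed out for the next 12 h, and added back at 100 ng/ml for the last 120 min. No unstimulated, single-dose or other-fraction library is part of the series, so every comparison below is between genes within a library or between the 3 libraries. The labels carry no mutation or transgene, give age and sex as not collected, and put the same donor identifier on all 3 replicates, without saying whether the cells came from separate animals or cultures. The spread between libraries may therefore be technical, and in such bulk RNA fewer cells of a type and less RNA per cell cannot be told apart.

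The nuclear genes of these complexes are housekeeping genes in most tissues. Complex I oxidises NADH, complex II (succinate dehydrogenase) oxidises succinate, complex III passes electrons to cytochrome c, complex IV (cytochrome c oxidase) passes them to oxygen, and complex V (ATP synthase) uses the proton gradient that complexes I, III and IV build. Core subunits carry the redox centres or the catalytic sites, and supernumerary subunits surround them. The core proteins in the matrix arm of complex I are nuclear-encoded, while the core of complex IV is mitochondrially encoded, so all nuclear subunits of complex IV are supernumerary. In macrophages, stimulation with lipopolysaccharide is known for a shift from respiration towards glycolysis. Chromatin-associated RNA is rich in nascent and incompletely spliced transcripts, so the levels here are not those of cytoplasmic mRNA.

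Total expected counts were 10293545 in replicate 1, 17820066 in replicate 2 and 17548564 in replicate 3. RNA input was 1 µg, 250 ng and 500 ng in that order. Transcript length minus effective length, which grows with the fragment size used in quantification, was 149.72 bases in replicate 1 against 256.82 and 251.26 bases. Replicate 1 thus stood apart from the other libraries before any gene was compared. All 10 macrophage markers on a fixed list were expressed, with a summed level of 1136 to 1705 TPM (a transcript level scaled for length and for the library's total). None of the 6 neutrophil, 5 B cell or 6 fibroblast markers was expressed. From alignments, expressed markers were 1 of 6 for T cells (Cd4) and 1 of 6 for erythroid cells (Alas2), whose other 5 were at 0 counts. For endothelium they were 2 of 5, with a summed level of 16.1 to 31.7 TPM, mostly from Vwf. By a read-based quantification, described below, they were 3 of 6 for T cells, 1 of 6 for erythroid cells and 3 of 5 for endothelium. There the T cell marker Cd3d stood at 14.5, 14.6 and 13.3 TPM, against 0, 0.05 and 0 from alignments.

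NRF1, GABP and YY1 are transcription factors known to bind near the start sites of many genes of this pathway. RefSeq promoter windows, 250 bases before to 50 bases after a start site on build GRCm38.p6, were matched to 68 of the 85 symbols, and 17 had no entry. The motifs were searched on both strands: CGCATGCG (the core of the NRF1 site, a palindrome), CCGGAAG (the core of sites for ETS factors such as GABP) and AAGATGGC (the core of the YY1 site). No letters of one motif are contained in another. The NRF1 core stood in 8 of 68 windows (11.8%), against 2.52% of 21263 windows of protein-coding genes. The ETS core stood in 15 of 68 (22.1%), against 11.6%. The YY1 core stood in 9 of 68 (13.2%), against 3.05%. Any of them stood in 28 of 68 (41.2%), against 16.0%. By complex, the YY1 core stood in 7 of 31 windows of complex I (22.6%) and in 2 of 14 of complex V (14.3%). It stood in none of the 3, 5 and 13 windows of complexes II, III and IV. The sequences shown are the 150 bases before the start site of the genes of highest level that hold an NRF1 or ETS core there, with the start site within 500 bases of the annotated gene start. They read 5′ to 3′ on the gene's own strand, and capitals mark the motif.
Atp5k: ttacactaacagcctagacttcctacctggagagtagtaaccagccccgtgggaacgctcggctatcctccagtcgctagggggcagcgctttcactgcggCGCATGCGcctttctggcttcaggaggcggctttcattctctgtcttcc
Ndufa11: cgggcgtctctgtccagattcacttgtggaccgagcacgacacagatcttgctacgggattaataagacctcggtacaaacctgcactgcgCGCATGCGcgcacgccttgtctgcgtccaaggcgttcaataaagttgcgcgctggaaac
Uqcrh: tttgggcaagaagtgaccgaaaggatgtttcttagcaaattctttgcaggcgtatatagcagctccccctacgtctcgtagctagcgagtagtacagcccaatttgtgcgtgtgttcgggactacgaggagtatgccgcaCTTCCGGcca
Atp5h: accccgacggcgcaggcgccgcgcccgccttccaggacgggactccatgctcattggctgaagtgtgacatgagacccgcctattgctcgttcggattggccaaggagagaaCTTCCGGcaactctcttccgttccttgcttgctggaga
The Atp5k stretch is chr5:108434400-108434549 on the minus strand, with the NRF1 core 49 to 42 bases before the start site. The Ndufa11 stretch is chr17:56717612-56717761 on the plus strand, with the NRF1 core 59 to 52 bases before it. The Uqcrh stretch is chr4:116075071-116075220 on the minus strand, with the ETS core, read as its reverse complement, 10 to 4 bases before the start site. The Atp5h stretch is chr11:115419920-115420069 on the minus strand, with the reverse complement of the ETS core 38 to 32 bases before it. No window near an annotated gene start held a YY1 core in these 150 bases. Levels with and without a motif overlapped. The median of the genes' mean TPM was 8.68 with the NRF1 core and 6.97 without, 10.1 with the ETS core and 6.72 without, and 8.76 with the YY1 core and 6.90 without. A match is a description of these letters only.

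Expressed, meaning at least 1 TPM in all 3 libraries, were 75 of the 86 genes (87.2%), against 42% of 22028 annotated protein-coding genes. The 11 that were not were 8 of the 19 complex IV genes, 2 of complex I (Ndufb6, and Ndufc2 with 0.92, 5.14 and 3.33 TPM; the latter was singled out after its values were seen) and the second Atp5o identifier. All genes of complexes II and III were expressed. Together the 86 genes took 0.0861%, 0.0800% and 0.0767% of the expected counts on annotated genes in replicates 1 to 3. Depth per gene was low: 34 of them had under 50 counts in every library, and 27 had over 100 in every library.

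The median level of the 86 genes was 6.61, 7 and 6.74 TPM in replicates 1 to 3. That of 9170 other expressed protein-coding genes, on the log2(TPM + 0.1) scale used for all differences of level below, was higher in every library. The difference of medians was -0.59, -0.99 and -0.83 in replicates 1 to 3 (mean -0.81 ± 0.20 SD, n = 3). By an exact two-sided sign-flip test over libraries it had p = 0.25, the smallest value that 3 libraries allow, and an adjusted p = 0.25 over 3 such differences. The comparison sets all members, 11 of them not expressed, against expressed genes, and over expressed members only the difference was -0.59. By read-based TPM it was -0.06, so the gap is almost absent in that quantification. The genes are short: their median span was 7245 bases and their median effective length 550.0 bases, against 24156 and 1952 bases in expressed protein-coding genes. Among the 75 expressed genes, level was unrelated to span as a description across genes (Pearson r = 0.092, Spearman rho = 0.11), and 24 of the 86 exceeded the median expressed gene in all 3 libraries.

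Genes of other large complexes lay higher. The proteasome is the machine that degrades ubiquitin-tagged proteins. Its 39 genes were taken by symbol (Psma, Psmb, Psmc or Psmd and a number), so the set is not limited to constitutive subunits. The median of the proteasome genes was 2.03 ± 0.13 (SD, n = 3) higher on the log2 scale, so the oxidative phosphorylation genes stood at 0.244 of it. The difference was -1.93, -2.18 and -1.99 in replicates 1 to 3 (exact sign-flip p = 0.25, adjusted p = 0.25). Against 91 cytosolic ribosomal protein genes the difference was -1.25, -1.75 and -1.74 (mean -1.58 ± 0.28 SD, exact sign-flip p = 0.25, adjusted p = 0.25), and it was -1.05 by read-based TPM. In all 3 libraries the genes were lower than in both sets, in the plot of medians too.

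**Figure D1:**
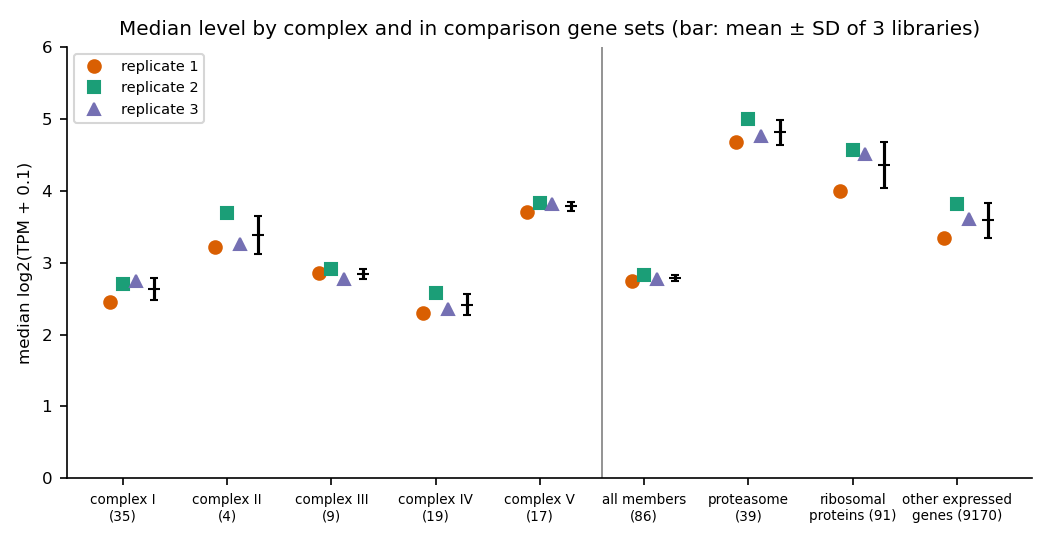
Median log2(TPM + 0.1) of the genes of each complex (left of the line) and of comparison sets (right), per library, with the mean ± SD of the 3 libraries as a bar and the number of genes in brackets. Complex V, at 3.71 to 3.82, lies above complexes I, III and IV in every library, and the proteasome set, at 4.67 to 5.005, above all members.

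Between complexes, over all genes of each, the median levels of ATP synthase and of complex II were highest. Complex V had a median of 13.0, 14.1 and 14.0 TPM in replicates 1 to 3, and the other 67 subunit genes lay 1.16 ± 0.09 (SD, n = 3) lower on the log2 scale, a 2.24-fold difference. Complex II also lay higher than the rest, by 0.60 ± 0.22, with medians of 13.1, 16.6 and 11.5 TPM over only 4 genes. In TPM these were above complex V in replicates 1 and 2. On the log2 scale they were 3.21, 3.69 and 3.26, below the 3.71, 3.82 and 3.82 of complex V in every library. The difference of complex II from the rest was 1.05 with means over genes and 0.39 over expressed genes. Complex I lay lower by a difference of -0.35 ± 0.14, with medians of 5.37, 6.40 and 6.58 TPM. Those 3 differences kept 1 sign in the 3 libraries (each exact sign-flip p = 0.25, adjusted p = 0.30 over 6 differences). For complex I the difference was -0.93 over expressed genes, -0.75 by read-based TPM and -0.17 without genes that overlap an opposite-strand gene. With means over genes instead of medians it was 0.10, with the opposite sign.

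Complex IV had a median of 4.84, 5.89 and 5.02 TPM and a difference of -0.46 ± 0.08 (SD, n = 3; exact sign-flip p = 0.25, adjusted p = 0.30). That place turned on its 8 genes that were not expressed, which are nearly all forms made in other tissues. Over expressed genes only, the median of the 11 remaining complex IV genes was 16.2 TPM, and the difference from the other subunits was 1.02, in the opposite direction. With means over genes it was -1.87. By symbol prefix alone it was -0.18, and without genes that overlap an opposite-strand gene -0.81. Complex III, with 7.14, 7.43 and 6.71 TPM, differed from the rest by 0.14 ± 0.14, and the libraries did not share a sign (exact sign-flip p = 0.50, adjusted p = 0.50). That difference was -0.20 over expressed genes and -0.19 by read-based TPM, but 0.72 with means over genes and 0.50 without genes that overlap an opposite-strand gene. Without replicate 1 it was 0.07 and without replicate 3 it was 0.21.

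**Figure D2:**
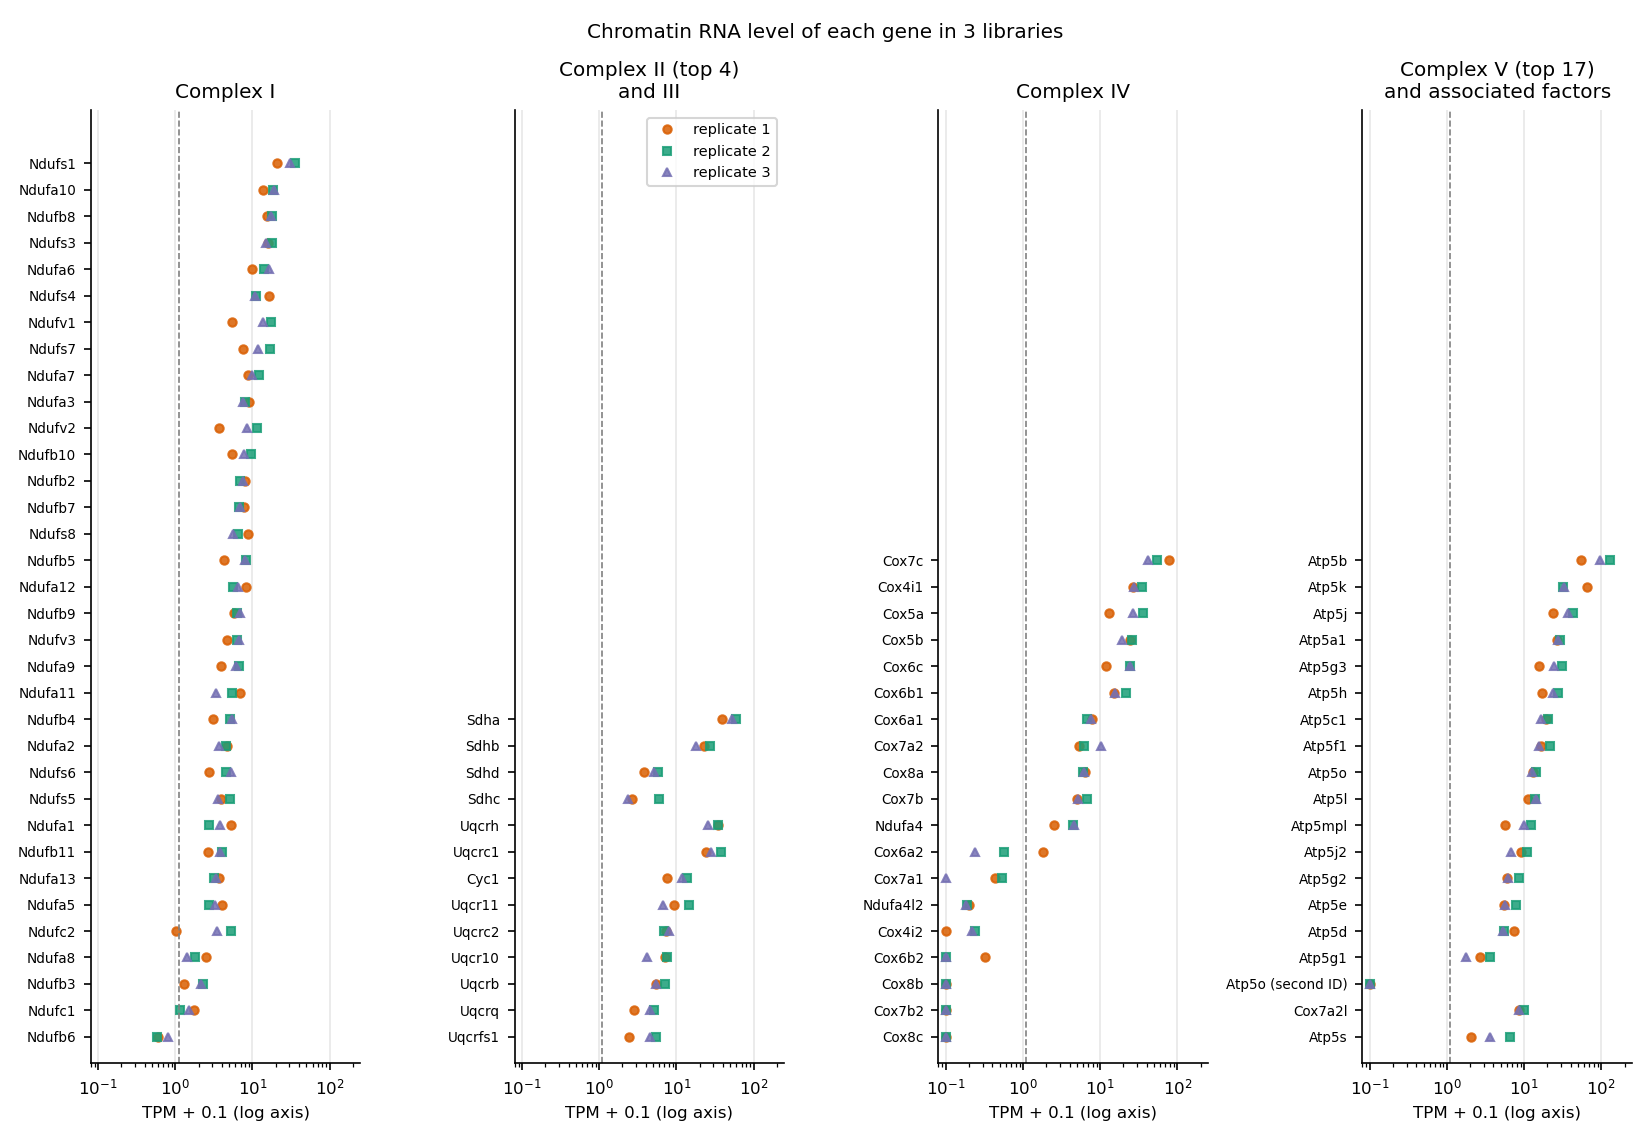
TPM + 0.1 of 85 of the 86 gene rows in the 3 libraries (log axis), by complex and ordered by mean level, with the dashed line at 1 TPM. Most genes lie between 1 and 100 TPM with the 3 symbols close together, and 8 genes of complex IV fall left of the line in at least 1 library.

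Within complex I, the genes of the core subunits were higher than those of the supernumerary ones. The 7 nuclear core genes had a median log2 level 0.92, 1.68 and 1.25 above the 28 supernumerary genes in replicates 1 to 3 (mean 1.29 ± 0.38 SD, n = 3, a 2.44-fold difference; exact sign-flip p = 0.25, adjusted p = 0.30). By read-based TPM the difference was 1.99. Ndufs1, which binds iron-sulfur clusters, stood at 20.7, 35.8 and 30.3 TPM. The supernumerary gene of highest mean level, Ndufa10, stood at 13.7, 18.3 and 19.2 TPM. In both of these genes replicate 1 was the lowest library, and there Ndufs4 and Ndufb8 exceeded Ndufa10. Ndufb6 was the lowest gene of the complex, with 0.49, 0.48 and 0.71 TPM from 2, 3 and 5 counts. The deposited bounds of its TPM in replicate 3 were 0.358 and 2.07.

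In complex II, the catalytic subunits lay above the membrane anchors. Sdha, the flavoprotein that oxidises succinate (chr13:74322254-74350280, build mm10), stood at 38.5, 59.9 and 52.4 TPM. Sdhb, the iron-sulfur subunit, stood at 22.5, 27.4 and 18.01 TPM. The anchors Sdhd, at 3.70, 5.74 and 4.98 TPM, and Sdhc, at 2.53, 5.93 and 2.25 TPM, were lower in every library. The lowest value of either catalytic gene, 18.01 TPM, exceeded the highest of either anchor, 5.93 TPM.

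Complex III was led by a small hinge subunit and a core protein. Uqcrh, which helps cytochrome c1 meet cytochrome c and whose promoter is shown above, stood at 34.4, 34.6 and 25.4 TPM. Uqcrc1 stood at 24.4, 37.3 and 28.0 TPM. Cyc1, cytochrome c1 itself, stood at 7.37, 13.7 and 11.6 TPM. Uqcrfs1, the Rieske iron-sulfur protein, had the lowest mean, with 2.35, 5.35 and 4.45 TPM, though Uqcrq in replicate 2 and Uqcr10 in replicate 3 were lower. By role, the median of the genes' mean TPM was 7.48 for the catalytic pair Cyc1 and Uqcrfs1 and 6.17 for the 5 supernumerary genes. The 2 core proteins had 18.6, so the catalytic pair was not the highest group.

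In complex IV, Cox7c (chr13:86044816-86046904) was highest at 78.5, 54.4 and 41.2 TPM. It shared 25.2% of its 31-base stretches with other annotated genes, 5 of them pseudogenes, so part of its reads may be split with them. Cox4i1, a subunit that binds the mitochondrially encoded core, stood at 26.5, 34.8 and 27.2 TPM, and Cox5a at 13.0, 36.0 and 26.5 TPM. Cox7c was highest in replicate 1, while Cox5a was lowest there. Cox5a overlaps exons of the opposite-strand transcript Gm26631, at 3.41, 10.8 and 7.69 TPM, and shares sequence with it.

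In complex V 1 gene of the catalytic head led by mean level, and the head as a whole did not. Atp5b, the beta subunit that makes ATP (chr10:128083273-128090391), had the highest mean TPM of all 86, at 54.3, 127.8 and 94.98 TPM. In replicate 1 Cox7c and Atp5k exceeded it. Its counts were 636, 1370 and 1270. The lowest library for Atp5b was replicate 1, and the deposited TPM bounds of that library, 47.8 and 61.0, did not reach those of replicate 3, 80.2 and 100.3. Its partner in the head, Atp5a1, stood at 26.8, 28.8 and 27.2 TPM, below Atp5b in each library. Atp5k, a small membrane subunit that helps ATP synthase form dimers (chr5:108433244-108434448), stood at 66.1, 31.6 and 32.9 TPM. Atp5j, of the peripheral stalk, stood at 23.3, 43.5 and 37.0 TPM. It shares 397 exon bases with Gabpa on the opposite strand, at 19.9, 14.3 and 12.8 TPM. The lowest identifier of the complex, the second Atp5o, overlaps Donson and was at 0 counts in all libraries, while the first stood at 13.0, 14.1 and 12.5 TPM.

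Of the genes outside the complexes, Cox7a2l, which helps complexes III and IV join in supercomplexes, stood at 8.40, 9.89 and 8.43 TPM. Atp5s, known as a coupling factor of ATP synthase, stood at 1.92, 6.45 and 3.51 TPM, from 12, 52 and 40 counts. Atp5s was lowest in replicate 1, and Cox7a2l differed little between libraries.

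Several subunits have a widely expressed form and a form known from muscle, testis or low oxygen, and here the widely expressed form led in each such pair by alignment-based TPM. Cox4i1 had 487 counts over the 3 libraries and Cox4i2, known from lung and low oxygen, had 2, a ratio per effective length of 332 (95% Clopper-Pearson interval 91.5 to 2752). Read-based TPM put Cox4i2 higher, at 1.45, 1.30 and 0.777 TPM, beside 47.9, 84.8 and 75.4 TPM for Cox4i1, a smaller ratio. Cox6b1 (15.0, 21.5 and 15.4 TPM) stood beside Cox6b2, a testis form with 1 count, a ratio of 205 (95% interval 36.3 to 8129). Cox7a2 (5.20, 6.05 and 9.98 TPM) stood beside the muscle form Cox7a1 (0.33, 0.44 and 0 TPM from 2 counts), a ratio of 28.4 (95% interval 7.62 to 239). Cox7b (4.84, 6.72 and 5.02 TPM) stood beside Cox7b2, and Cox8a (6.32, 5.89 and 6.01 TPM) beside Cox8b and Cox8c, all 3 listed at 0 in every library by alignments. From reads Cox8b was listed at 1.84, 3.02 and 2.97 TPM from 8, 14 and 14 counts, Cox7b2 at 1 to 3 counts, and Cox8c at 0. Within the alignment-based table, a count of 0 allows up to 3 counts, 2.91e-05% of the total in replicate 1 and 1.71e-05% in replicate 3, for counting error only. These pairs, with a zero in some library, were not tested.

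For 5 pairs every library had counts on both genes. Cox6a1 stood at 7.63, 6.56 and 7.52 TPM and the muscle form Cox6a2 at 1.69, 0.46 and 0.14 TPM. The difference was 3.56 ± 1.44 on the log2 scale (SD, n = 3), and the ratio of summed counts per effective length was 9.84 (95% Clopper-Pearson interval 5.73 to 18.1). By read-based TPM the difference was 2.27, with Cox6a2 at 2.87, 1.51 and 0.855 TPM, and with a pseudocount of 1 it was 2.32. Of the 15 counts on Cox6a2, 11 were in replicate 1. Ndufa4, a complex IV subunit despite its name, stood at 2.43, 4.35 and 4.45 TPM, and Ndufa4l2, known from low oxygen, at 0.10, 0.09 and 0.08 TPM from 1 count per library. The log2 difference was 4.29 ± 0.55 (SD, n = 3), or 2.09 with a pseudocount of 1, and the ratio per effective length was 43.2 (95% interval 14.4 to 213). The intervals cover counting error only.

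The c ring of ATP synthase, which turns as protons pass, is made from 3 genes whose mature proteins are the same. Atp5g3 led at 15.5, 30.7 and 24.2 TPM, Atp5g2 stood at 5.88, 8.59 and 6.08 TPM, and Atp5g1 at 2.57, 3.51 and 1.68 TPM. The order held in each library. Atp5g1 differed from Atp5g2 by -1.41 ± 0.34 and from Atp5g3 by -3.13 ± 0.61, and Atp5g2 from Atp5g3 by -1.73 ± 0.31 on the log2 scale (SD, n = 3). By read-based TPM the difference of Atp5g1 from Atp5g2 was only -0.45. All 5 tested pairs kept 1 sign over the 3 libraries, with exact sign-flip p = 0.25 and adjusted p = 0.25 each. Atp5g2 shares 40.2% of its 31-base stretches with other annotated genes, so its level is uncertain.

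Incompletely spliced RNA can be assigned to isoforms that the annotation types as retained intron. Of the expressed genes, 46 have such an isoform, and the median share of their expected counts on it was 59.6%, 61.1% and 62.5% in replicates 1 to 3 (mean 61.1% ± 1.4 SD, n = 3). Over 5967 expressed protein-coding genes with such an isoform the median was 30.98%. More than 50% of counts lay on retained-intron isoforms in 30 of the 46 genes (65.2%), against 30.2% of all such genes. A longer isoform draws more counts, and as a share of TPM, which takes length into account, the medians were 57.7% for the members and 47.0% for all such genes, a smaller gap. By read-based counts they were 54.8% and 33.0%.

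By complex, the median was 71.4% ± 9.7 (SD, n = 3) in 10 genes of complex V, 58.9% ± 2.6 in 20 of complex I, 63.0% ± 3.1 in 9 of complex IV and 56.9% ± 2.3 in 5 of complex III. Sdha, the only such gene of complex II, had 22.3%. The 5 highest by mean were Ndufb4, Ndufa6, Atp5l, Ndufb7 and Ndufa7. Ndufb4 had 100%, 96.4% and 96.0% on that isoform type, but from only 20.7, 41.1 and 40.8 counts. Ndufa6 had 95.05%, 97.9% and 92.8%. Atp5l, a membrane subunit with more counts (319, 785 and 766), had 89.7%, 97.1% and 95.7%. Ndufb7 had 86.9%, 96.2% and 94.3%, and Ndufa7 88.4%, 95.6% and 92.6%. Atp5l shares 85.4% of its 31-base stretches of coding isoforms with other annotated genes, most with the pseudogene Gm10221, and its part in the share was not tested. At the other end Atp5a1 had 7.28%, 6.85% and 8.71% and Uqcrc2 10.1%, 4.51% and 4.59%, both named after their values were seen.

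**Figure D3:**
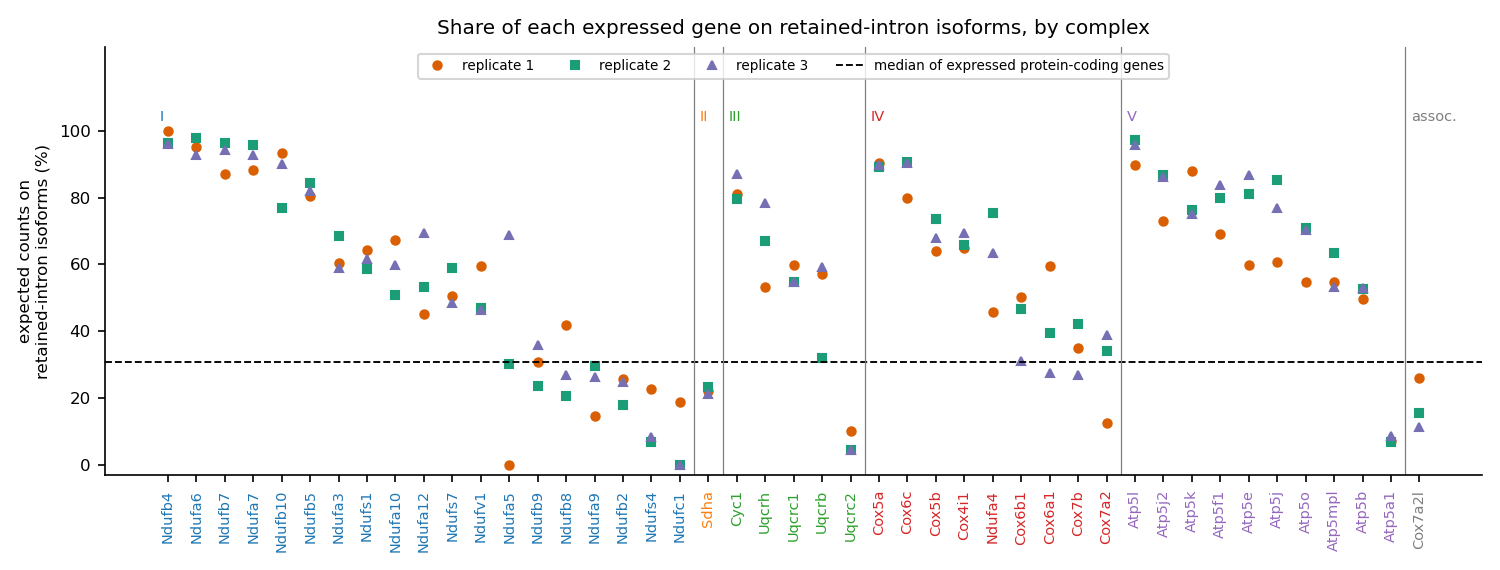
Percent of a gene's expected counts on retained-intron isoforms, per library, for 45 of the 46 expressed genes with such an isoform, by complex (I to V, then associated). The dashed line is the median of 5967 expressed protein-coding genes, 30.98%, and 9 of the 10 complex V genes have a mean above 50%.

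Between libraries, the genes spread about as much as other genes. The median SD of log2(CPM + 0.5), with TMM scaling, was 0.253 over the 78 that passed a filter of 10 counts over all libraries, against 0.288 over 17110 genes. In 3141 other protein-coding genes of like counts it was 0.299. The median biological coefficient of variation that edgeR fitted per gene was 27.8%, against 28.6% over all genes. Most of this spread came with replicate 1: without it the median SD was 0.084 over 76 of the genes, against 0.149 over 16238 genes, and edgeR's common coefficient over all genes was 16.4% in place of 29.8%. For the members, counts in replicates 2 and 3 differed little more than sampling noise, with a chi-square of 1.26 per degree of freedom. Libraries were scaled here to the members' own summed counts, so a shift of all members together does not enter such a value. Replicate 1 against replicates 2 and 3 gave 10.8 and 10.3. Over all genes replicates 2 and 3 gave 20.3. Such a value grows with counts and cannot show whether the libraries are separate samples, though each was counted as 1. Among expressed members, log2 TPM correlated between replicates 2 and 3 with r = 0.96 and between replicate 1 and the others with 0.89 and 0.90, as a description across 75 genes that share libraries.

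Replicate 1 was at least 2-fold higher than each other library, by CPM, in 6 of 78 genes (7.69%), against 7.94% of 17110 genes, and at least 2-fold lower in 2 (2.56%), against 5.76%. Both shares were near or below those of all genes. In the 3141 other protein-coding genes of like counts, 3.53% were higher and 4.90% lower. The share of higher members was thus above that of this set, and the share of lower members below it. The median log2 difference of replicate 1 from the mean of the others was 0.17 in members and -0.09 in that set. The 6 higher ones were Atp5k, Cox6a2, Ndufa1, Ndufs8, Ndufa12 and Ndufa8, and the 2 lower ones Atp5s and Ndufc2 (Ndufa12, Ndufa8 and Ndufc2 were named after their values were seen). Atp5k had the highest spread of all, with 29.3 CPM in replicate 1 against 6.25 and 7.77, and an SD of 1.16 on the log2 scale. Ndufs8, a core subunit with iron-sulfur clusters, had 8.68 CPM against 3.94 and 3.94. Ndufa1, a small membrane-arm subunit, had 1.64 against 0.394 and 0.647 CPM from 17, 7 and 11 counts. Cox6a2 had 1.06 against 0.169 and 0.059 CPM. Cox6c moved the other way, with 14.8 CPM against 29.5 and 30.8. Its exons share 250 bases with Vps13b on the opposite strand, at 26.8, 71.9 and 48.4 TPM, lowest in replicate 1 as well, and the part of those reads was not tested.

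The direction in replicate 1 went with gene length. Of the 39 genes with an effective length under the median of 587.0 bases, 32 were higher in replicate 1 than the mean of the others, with a median log2 difference of 0.44. Of the 39 longer ones 19 were higher, with a median of -0.02. Across the 78 genes the difference and log10 effective length had r = -0.50 and rho = -0.55, against r = -0.15 over 12198 protein-coding genes, both as descriptions across genes of the same libraries. The shorter fragments and the larger RNA input of replicate 1, given above, moved with this difference, and their part in it was not tested.

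**Figure D4:**
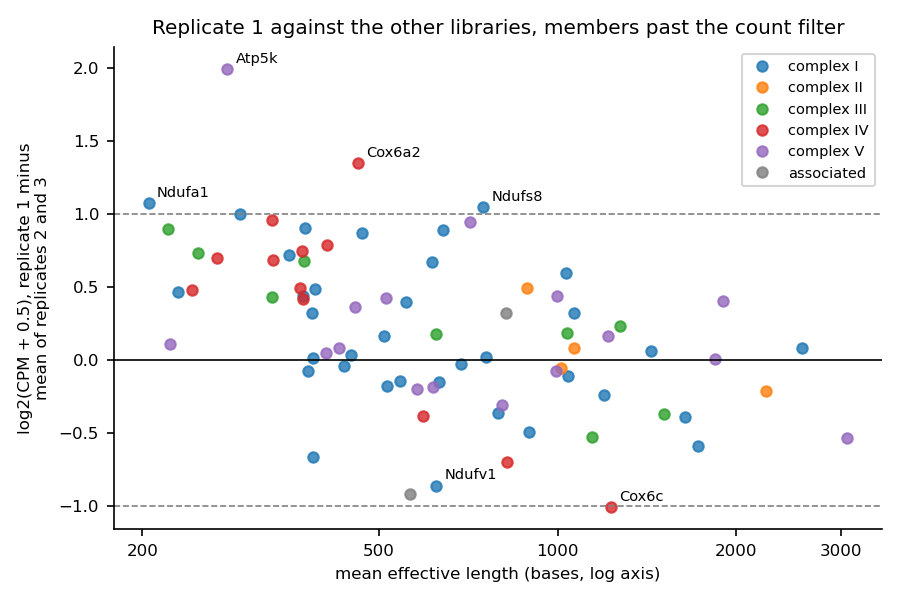
Difference of log2(CPM + 0.5) between replicate 1 and the mean of replicates 2 and 3 for 78 genes, against mean effective length in bases (log axis), coloured by complex. Dashed lines mark a 2-fold difference from that mean, and Atp5k, at 2.00, is the farthest from 0.

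The same libraries were quantified from alignments and, in a separate table, from the reads directly. The read-based mean TPM was at least 2-fold higher for 19 of 77 members (24.7%), against 21.6% of 10331 protein-coding genes. It was at least 2-fold lower for 0 of 77, against 0.155%. The shares are near those of all genes, and the median ratio was 1.48 for members and 1.37 for all genes. By complex, 12 of 35 genes of complex I and 4 of 11 of complex IV were 2-fold higher, against 1 of 16 of complex V. The 5 largest ratios among expressed genes were those of Ndufc1, Cox7b, Cox7a2, Ndufs8 and Sdhc. Ndufc1 stood at 1.67, 1.04 and 1.40 TPM from alignments and 6.04, 9.999 and 8.15 TPM from reads. Cox7b went from 4.84, 6.72 and 5.02 to 25.2, 28.1 and 22.7 TPM, and Cox7a2 from 5.20, 6.05 and 9.98 to 19.9, 39.4 and 34.6 TPM. Ndufs8 went from 8.77, 6.40 and 5.52 to 27.7, 29.3 and 24.3 TPM, and Sdhc from 2.53, 5.93 and 2.25 to 9.85, 18.4 and 13.0 TPM. In each of these 5 genes the ranges of the libraries did not overlap between the quantifications, but the genes were chosen by that ratio.

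Sequence shared with other genes was counted for each gene. Of the 86 members, 60 share at least 1 stretch of 31 bases with another annotated gene. The median log2 ratio was 0.52 in the 34 genes with over 10% of stretches shared and 0.61 in the 43 others. Ndufs8 shares none. Cox7a1, the muscle form, falls below the count filter and shares none either, yet was listed at 6.35, 8.83 and 8.09 TPM from reads beside 0.33, 0.44 and 0 TPM from alignments. Its level is therefore uncertain, and so is the size of its ratio to Cox7a2. Cox7a1 lay below Cox7a2 in every library by both quantifications.

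**Figure D5:**
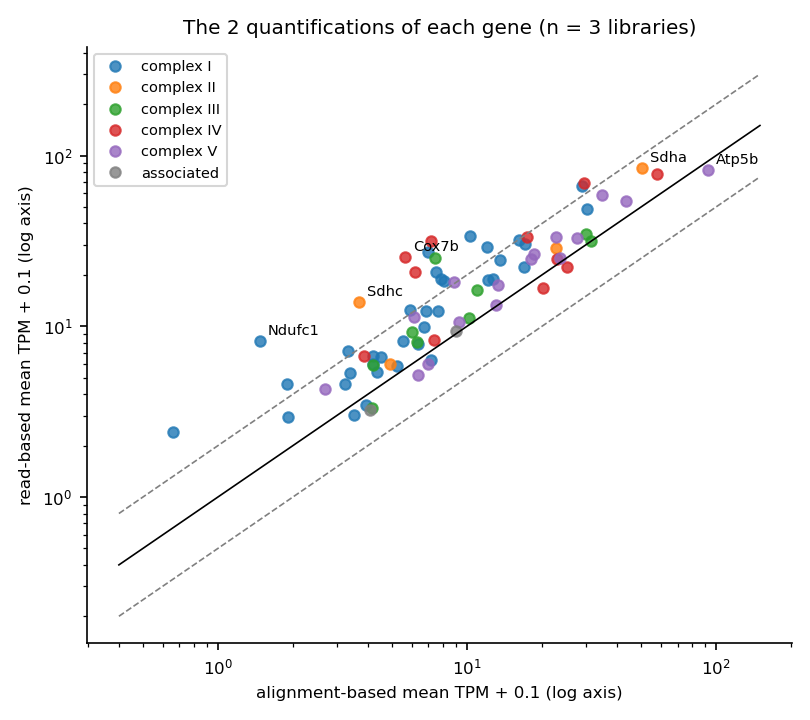
Mean TPM + 0.1 of 77 genes by alignment-based (x) and read-based (y) quantification, both log axes, coloured by complex. The solid line is equality and the dashed lines 2-fold, and 19 genes lie above the upper dashed line with none below the lower.

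Other genes of the pathway were read from lists by function. Of the assembly factors, which help build the complexes and are no part of them, 11 of 14 were expressed for complex I, 1 of 4 for complex II, 4 of 6 for complex III, 17 of 21 for complex IV and 3 of 3 for complex V. By read-based TPM they were 14 of 14, 2 of 4, 6 of 6, 19 of 21 and 3 of 3 in that order. The highest by mean level was Foxred1 for complex I (11.5, 19.8 and 15.9 TPM), Sdhaf2 for complex II (14.7, 24.2 and 22.4), Uqcc1 for complex III (6.30, 25.9 and 10.7), the copper chaperone Cox17 for complex IV (25.2, 42.2 and 45.5) and Atpaf1 for complex V (8.87, 9.30 and 9.84). The lowest had mean levels of 0.98 TPM (Nubpl), 0.71 TPM (Sdhaf1), 0.54 TPM (Lyrm7), 0.23 TPM (Sco2) and 4.29 TPM (Atpaf2). These places are by alignment-based TPM. By read-based TPM Acad9 (29.7, 41.1 and 37.2) exceeded Foxred1 (13.5, 19.6 and 15.6). Surf1 (32.6, 45.9 and 40.8) exceeded Cox17 (24.5, 26.7 and 32.0) there too. Of 9 carriers and subunits outside the symbol rule 8 were expressed, led by Gpd2 at 47.2, 52.0 and 47.0 TPM, and Cyct, the testis cytochrome c, was listed at 0.

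Of 15 regulators of mitochondrial biogenesis 13 were expressed by alignment-based TPM and 14 by read-based TPM. From alignments, the highest by mean level was Polg, the mitochondrial DNA polymerase, at 41.5, 85.6 and 64.7 TPM. By read-based TPM Esrra, at 64.3, 80.1 and 58.3, exceeded Polg, at 40.9, 69.1 and 57.5. The lowest from alignments was the coactivator Ppargc1a, with 0.24, 0 and 0 TPM from 1 count. From reads Ppargc1a stood at 0.60, 2.59 and 1.84 TPM, so its level is uncertain. The factors named with the motifs above were all expressed: Nrf1 stood at 19.8, 29.8 and 26.7 TPM, Gabpa at 19.9, 14.3 and 12.8 TPM, and Yy1 at 14.7, 17.5 and 14.3 TPM. Of the 13 mitochondrially encoded subunits, the partners of these genes in complexes I, III, IV and V, 8 were expressed by alignment-based TPM and 11 by read-based TPM. mt-Co1 was highest at 180, 295 and 253 TPM. mt-Atp6 was listed at 0 TPM from alignments and at 49.5, 45.1 and 49.2 TPM from reads, so a listed 0 in the first tables does not show that a gene was silent.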

How the data were processed

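Per the file headers, the authors deposited for each library gene and transcript tables with expected counts, effective length, TPM and bounds of TPM (used as a score), and a read-based transcript table with estimated counts and TPM. Per the labels the build is mm10, and transcript names are those of GENCODE M21. On program versions and strandedness nothing is given in the sources used here. Without strand, a gene and an overlapping antisense gene cannot be told apart. The members and gene lists were chosen with earlier results of these data known. Named genes are, per complex, the 3 highest and the lowest, all paralog pairs, the 5 of highest spread, retained-intron share and difference between quantifications, the associated factors, and the highest and lowest of each list. Levels are log2(TPM + 0.1). Differences of medians within a library were tested by exact two-sided sign flips over 3 libraries, with Benjamini-Hochberg adjustment. Expected counts were rounded, filtered at 10 counts over all libraries and scaled by TMM in edgeR 4.0.16, with a prior of 0.5 CPM. Alternatives were DESeq2 1.42.0 size factors, other pseudocounts (0.01 and 1), filters and thresholds, effective length of at least 200 bases, read-based TPM and leaving out each library. Leaving out genes that overlap an opposite-strand gene was a further alternative, which was not planned in advance. Calls and dispersion were tested on simulated data. A gene of complex I enters the counts and medians and is not reported here by itself.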

Additional observations from a re-analysis of the deposited data

Results flagged for a closer look

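Rows with a matching symbol but no protein-coding isoform were left out of the report, and 2 of these 12 had more than the 3 counts that a count of 0 allows in every library. Ndufb1-ps, typed as a bidirectional-promoter noncoding RNA in the annotation, had expected counts of 62.58, 90.43 and 108.47 in replicates 1 to 3. Ndufb4c, a processed pseudogene of a complex I subunit, had 11.31, 15.93 and 8.21. Of the 12 rows, 8 were at 0 in all libraries.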

How the results depend on the processing

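Of 150 recomputed values for 21 results, 138 kept their direction, or for counts and shares were not classed as moved. Among them the count of expressed genes still fell from 75 to 50 at a threshold of 5 TPM, so that count depends on the threshold. Of the 138, 20 moved by over 1.5 times: the gap to the median expressed gene fell from -0.81 to -0.06 by read-based TPM, and Atp5g1 against Atp5g2 went from -1.41 to -0.45. Complex III, restricted to genes of effective length 200 bases or more, differed by 0.09, and the others stand beside their results. The 4 that changed sign were complex I against the other subunits with means over genes (0.10 in place of -0.35), complex III by read-based TPM (-0.19) and over expressed genes (-0.20, in place of 0.14), and complex IV over expressed genes (1.02 in place of -0.46). None of the 30 values of the pairs changed sign. The retained-intron share of 61.1% was 54.8% by read-based counts and 57.7% as a share of TPM. The median replicate SD, 0.253, ranged from 0.084 to 0.278 when 1 library was left out. At 1.5-fold, 17 of 78 genes were higher and 5 lower in replicate 1, in place of 6 and 2. Over 17110 genes these shares were 15.3% and 13.6%. Without the count filter 7 of 82 were higher and 4 lower, against 13.9% and 11.9% of 23517 genes. Read-based TPM was 4-fold higher for 3 of 77 genes, against 6.48% of 10331 protein-coding genes. It was 2-fold higher relative to the median gene for 10, in place of 19, against 11.6% of those genes. This alternative was chosen after seeing the data. The one without genes that overlap an opposite-strand gene was not planned either. No paired analysis was possible because the series has 1 group. No test could pass a threshold of 0.05 with 3 libraries, and counts under 50 for 34 genes limit their precision.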
